A study of Homo sapiens with 6 samples.

Results

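The A2780s pCMV-Hic-5 clone is a human epithelial ovarian cancer line made to express Hic-5, and the following describes how its RNA differed from that of its control clone across all genes on 2 of the 6 arrays of the series. Those 2 arrays are the ones whose labels give pCMV-Hic-5 against Ctrl. Both hold the same pair of RNAs, once with the clone in the dye Cy5 (the Cy5 array) and once with it in Cy3 (the Cy3 array), so they are 1 biological replicate measured with the dyes exchanged. The remaining 4 arrays carry SKOV3 cells, another ovarian cancer line. There the clones sh-S1 and sh-S2, labelled as knockdowns of Hic-5 by shRNA, were set against their own Ctrl. The pCMV-Hic-5 group is 1 stable clone of A2780s, transfected with a pCMV6 plasmid in which the cytomegalovirus promoter drives a human Hic-5 cDNA with a Myc-DDK tag. The Ctrl group is an A2780s clone that received the empty plasmid, and both were grown under neomycin during selection. No other treatment or time point separates them in the labels. A difference between these RNAs is therefore a difference between 1 clone and 1 clone, and differences between clones that have nothing to do with Hic-5 cannot be told apart from those that do.

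Hic-5, the product of TGFB1I1, is a relative of paxillin that sits at focal adhesions, the contacts where integrins tie the cytoskeleton to the matrix, and that also acts in the nucleus as a coregulator of transcription. It was first found as a gene induced by TGF-beta and by hydrogen peroxide, and it is known for a part in epithelial to mesenchymal transition (EMT), in which epithelial cells lose their junctions and become migratory. The stress programs described below are read out largely at the RNA level. When unfolded protein collects in the endoplasmic reticulum (ER), the sensors PERK, IRE1 and ATF6 are activated, IRE1 splices XBP1, ATF6 is cleaved, and chaperones and degradation factors are made. PERK and related kinases also phosphorylate eIF2-alpha, which favours translation of ATF4, and ATF4 with CHOP (DDIT3) switches on amino acid, redox and cell death genes. This eIF2-alpha branch is called the integrated stress response.

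Sequences are shown for the probe that reads the Hic-5 gene, for 1 of the probes of ATF3, and for promoters of genes that later head the stress and protease results. The ATF3 probe shown is the dimmer one, with a mean log2 ratio of 2.51, and not the brightest probe by which ATF3 is read below. The probes are 60 bases long and were placed by the array's annotation on hg19, TGFB1I1 (probe A_23_P141055) at chr16:31488267-31488326 and ATF3 (probe A_24_P33895) at chr1:212792837-212792896, both on the plus strand.
TGFB1I1 probe: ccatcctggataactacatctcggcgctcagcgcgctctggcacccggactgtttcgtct
ATF3 probe: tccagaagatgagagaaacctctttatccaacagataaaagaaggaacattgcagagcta
The promoters are the 250 bases before the start that RefSeq lists for each gene on GRCh38.p14, and capitals mark the motifs found in them. HERPUD1 lies at chr16:56931892-56932141 on the plus strand, ATF3 at chr1:212565157-212565406 on the plus strand, DDIT3 at chr12:57520515-57520764 on the minus strand, CHAC1 at chr15:40953221-40953470 on the plus strand, HSPA5 at chr9:125241344-125241593 on the minus strand and MMP10 at chr11:102780629-102780878 on the minus strand. The first 4 had the largest rises of the stress genes with a listed promoter, since SLC7A11 and HMOX1 had none. MMP10 was taken by the size of its fall, as MMP3 had no listed promoter. HSPA5 was added after its values were seen. TRIB3 and DNAJB9, stress genes next in size after CHAC1, hold none of the motifs in their 250 bases and are not shown. HTRA3, a protease that rose more than CHAC1, held none either and is not shown, so every promoter shown has a match. A gene can have other starts, which were not searched.
HERPUD1: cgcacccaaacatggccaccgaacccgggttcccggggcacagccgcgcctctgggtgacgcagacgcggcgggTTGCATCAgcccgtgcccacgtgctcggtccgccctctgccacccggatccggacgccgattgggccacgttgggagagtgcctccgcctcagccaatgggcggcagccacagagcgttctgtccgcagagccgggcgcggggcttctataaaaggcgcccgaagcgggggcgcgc
ATF3: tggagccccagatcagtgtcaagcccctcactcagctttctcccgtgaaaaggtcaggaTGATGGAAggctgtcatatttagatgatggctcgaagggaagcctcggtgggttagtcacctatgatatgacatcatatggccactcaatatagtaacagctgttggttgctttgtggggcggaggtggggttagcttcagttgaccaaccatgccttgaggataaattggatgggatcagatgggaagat
DDIT3: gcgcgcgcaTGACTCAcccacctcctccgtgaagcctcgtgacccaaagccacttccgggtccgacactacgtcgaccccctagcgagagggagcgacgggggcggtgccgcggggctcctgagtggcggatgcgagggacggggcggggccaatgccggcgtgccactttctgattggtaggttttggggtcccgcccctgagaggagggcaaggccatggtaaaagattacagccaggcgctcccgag
CHAC1: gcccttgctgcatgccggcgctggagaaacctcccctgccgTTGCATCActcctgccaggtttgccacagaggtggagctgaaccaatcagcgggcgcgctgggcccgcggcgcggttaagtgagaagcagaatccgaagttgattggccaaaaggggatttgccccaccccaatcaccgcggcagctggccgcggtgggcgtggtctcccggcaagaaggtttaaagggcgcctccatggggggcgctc
HSPA5: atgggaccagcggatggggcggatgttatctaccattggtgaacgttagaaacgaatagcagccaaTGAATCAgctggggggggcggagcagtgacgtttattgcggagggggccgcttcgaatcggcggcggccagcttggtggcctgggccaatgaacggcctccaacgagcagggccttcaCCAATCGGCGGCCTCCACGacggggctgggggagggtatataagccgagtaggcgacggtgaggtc
MMP10: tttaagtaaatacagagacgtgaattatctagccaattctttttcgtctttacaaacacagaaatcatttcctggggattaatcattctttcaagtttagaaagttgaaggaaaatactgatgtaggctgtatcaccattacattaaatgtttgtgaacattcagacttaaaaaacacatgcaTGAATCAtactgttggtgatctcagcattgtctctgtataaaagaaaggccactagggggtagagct
HERPUD1, ATF3 and CHAC1 each hold the ATF4 composite element, spelled TGATGNAA, at bases 75 to 82, 60 to 67 and 42 to 49 counted from the first base shown. DDIT3 and MMP10 each hold an AP-1 element, TGANTCA, at bases 10 to 16 and 184 to 190. HSPA5 holds the ER stress element, the long composite site of ATF6 and NF-Y, at bases 185 to 203 and an AP-1 element at bases 67 to 73. These are matches of letters on either strand and not sites shown to be bound.

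The arrays were checked through the gene they were built around. TGFB1I1 had a spot intensity above local background of 372398 in the clone and 11374 in Ctrl on the Cy5 array, and of 235570 in the clone and 59618 in Ctrl on the Cy3 array. The clone was the brighter channel on both arrays. After normalization of the dyes the log2 ratio of pCMV-Hic-5 over Ctrl was 4.05 and 2.60, a mean of 3.33 ± 0.73 or 10.0-fold, where the value after ± is the distance of either array from their mean. A single probe reads this gene, so RNA of the transgene and of the cell's own gene cannot be told apart. Both arrays lie on 1 slide and the SKOV3 arrays on another, which leaves no way to tell slide from cell line.

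Of 16 markers of epithelial ovarian cancer, the labelled cell type, 11 were well above background in either RNA on both arrays. By a like filter 16192 of the 19399 named genes on the array entered. A count of markers above background therefore does not identify a cell type here. PAX8, a lineage factor of Müllerian epithelium, WFDC2, which encodes the serum marker HE4, FOLR1, the folate receptor, and KRT8 and KRT18, keratins of simple epithelia, were among the 11. CDH1, the gene of E-cadherin and a defining epithelial marker, was never well above background in these 4 channels, and KRT7 and WT1 were so in 1 Ctrl channel only. KRT18 was the 1 marker of this list that passed the fold rule given below. Of 10 fibroblast markers 8 were well above background in either RNA on both arrays, led by COL3A1 and THY1, while FAP never was. Summed over the 10 fibroblast markers, the intensity was 64343 in the clone and 37824.5 in Ctrl on the Cy5 array, and 36533 and 58536 on the Cy3 array. These sums precede dye normalization, COL3A1 makes up most of them, and the sums of all 4 marker lists were higher in Cy5 on both arrays. After normalization the median log2 ratio of the 8 measured fibroblast markers was -0.23 and -0.30, with 6 of them below 0 on both arrays and 2 above. Their part in the falls described below was not tested. PDGFRA, a receptor of mesenchymal cells, was the fibroblast marker that passed the rule, at -1.08 and -0.57, a mean of -0.83. Leukocyte markers (8 of 10, with CD3D and LYZ never above background) and endothelial markers (5 of 8, with PECAM1 and TIE1 never) held no gene past the rule, with median log2 ratios of -0.09 and -0.07. Both RNAs came from clones of 1 cell line, so these lists describe RNA of that line and not shares of other cell types. Whether fewer cells of a culture express a gene or each cell holds less of its RNA cannot be told apart.

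A single replicate allows no test and no p-value, and nothing below was checked in another clone or culture. A probe or gene was called when the mean log2 ratio reached 1.5-fold, which is 0.58 on the log2 scale, and both arrays had the same sign, and "rose" and "fell" are used for called genes only. By that rule 994 of 30530 probes (3.26%) were higher in the clone and 403 (1.32%) were lower. Read by the brightest probe of each gene, 590 of 16192 genes (3.64%) were higher and 257 (1.59%) were lower. Past 2-fold there were 126 genes higher and 18 lower, and past 4-fold 17 higher and 2 lower. Of the called genes, 314 of the higher and 95 of the lower reached 1.5-fold on each array. The ratios of the arrays correlated across genes, which are not independent, with a Pearson's r of 0.522, and 60.4% of genes had the same sign on both. The median distance of either array from the mean was 0.11 over all genes and 0.15 over called genes. Other probes, which are dimmer by this reading, did not always follow the brightest one. Among higher genes with several probes, 73 of 230 had every probe called and 33 had a probe of opposite sign. For lower genes these counts were 13 and 39 of 133.

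**Figure D1:**
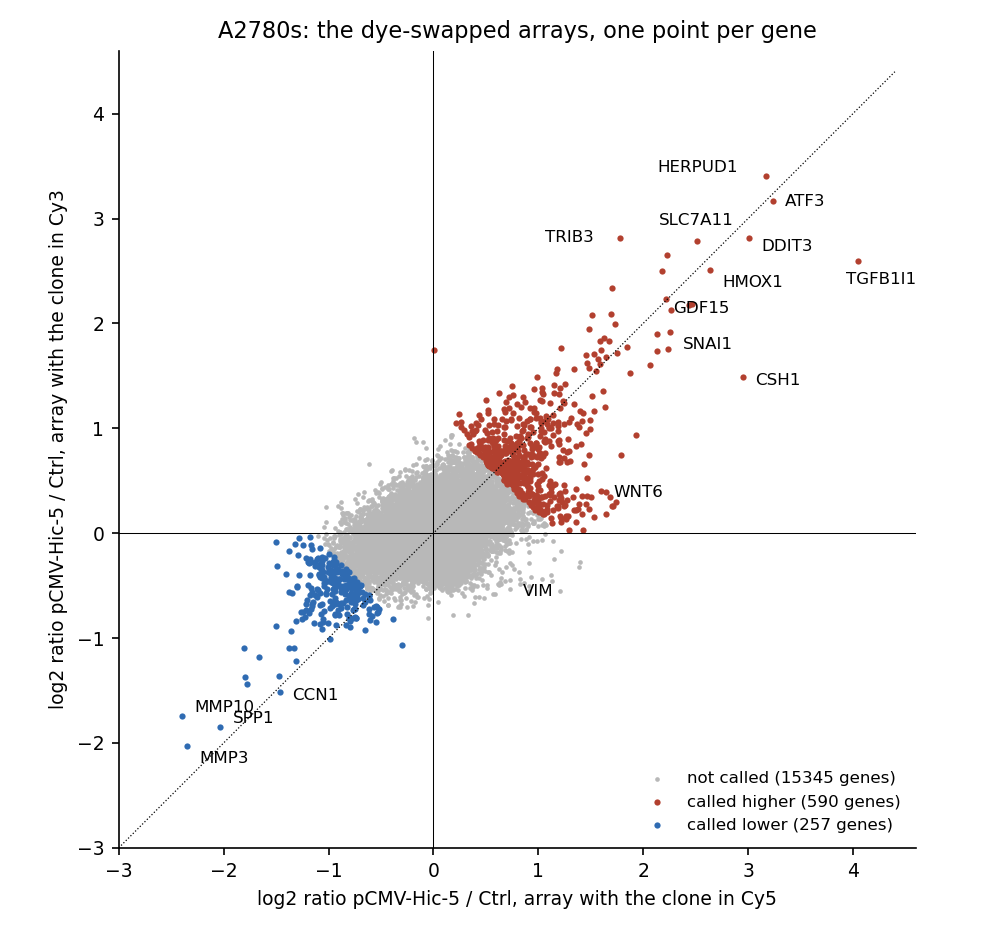
Each point is 1 of 16192 genes, with its log2 ratio of pCMV-Hic-5 over Ctrl on the Cy5 array (clone in Cy5) on the horizontal axis and on the Cy3 array (clone in Cy3) on the vertical axis. Red points are the 590 genes called higher, blue points the 257 called lower, and the dotted line marks equal ratios. HERPUD1, ATF3 and DDIT3 lie near that line at about the same height on both arrays, TGFB1I1 and CSH1 lie below it, and MMP3, MMP10 and SPP1 form the far end on the lower side.

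The largest rises after TGFB1I1 were mostly genes of stress. HERPUD1, an ER membrane protein of the degradation complex, rose by a log2 ratio of 3.17 and 3.40, a mean of 3.29 ± 0.12. Its second probe was at 0.20, so the probes of this gene disagree, but that probe was dim, with a mean log2 intensity of 7.76 beside 15.57. ATF3, a stress-induced transcription factor, was at 3.24 and 3.16, a mean of 3.20 ± 0.04, and its other probe rose by 2.51. DDIT3, which encodes the death-linked factor CHOP, was at 3.01 and 2.81, a mean of 2.91 ± 0.10. In spot intensity ATF3 read 33589 in the clone and 2048 in Ctrl on one array, and 16906 and 2314 on the other, while DDIT3 read 25965 and 1844, and 15089 and 2645. SLC7A11, the cystine importer, and HMOX1, the haem-degrading enzyme, followed at means of 2.65 and 2.57, with both arrays within 0.14 of the mean. HTRA3 and CHAC1 were also among the 10 largest rises, together with FUT1, a fucosyltransferase, at 2.44, and IL21R, a cytokine receptor, at 2.34, which belong to no list used here. The largest falls were MMP3, MMP10, SPP1, HOXA13, ITM2A, CCN1, DOK6, CXCR4, KHDC1 and CCN2, from -2.19 to -1.26. Of these, HOXA13 is a posterior homeobox factor and fell by 1.61 on the log2 scale, CXCR4 is the receptor of the chemokine CXCL12 and fell by 1.42, and ITM2A, DOK6 and KHDC1 fell by 1.58, 1.45 and 1.42.

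Of the 4 programs, stress genes had the largest share called. Of 245 measured stress genes in 10 lists, 69 (28.2%) rose and 2 fell, against 3.64% and 1.59% of all genes, with a median log2 ratio of 0.22 against -0.01 over all genes. On both arrays 142 of the 245 were above 0 and 53 below, and 50 had opposite signs. The 32 metabolic genes that rose were 11.6% of 277, in which 4 fell and the median was 0.05. Among 183 adhesion genes 5 (2.73%) rose and 4 (2.19%) fell, a share near that of all genes, with a median of -0.05. Secreted genes moved in both directions, with 10 (6.62%) of 151 higher, 12 (7.95%) lower and a median of -0.03. These lists were put together with earlier results of the same arrays known, so the counts describe them and are no test.

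**Figure D2:**
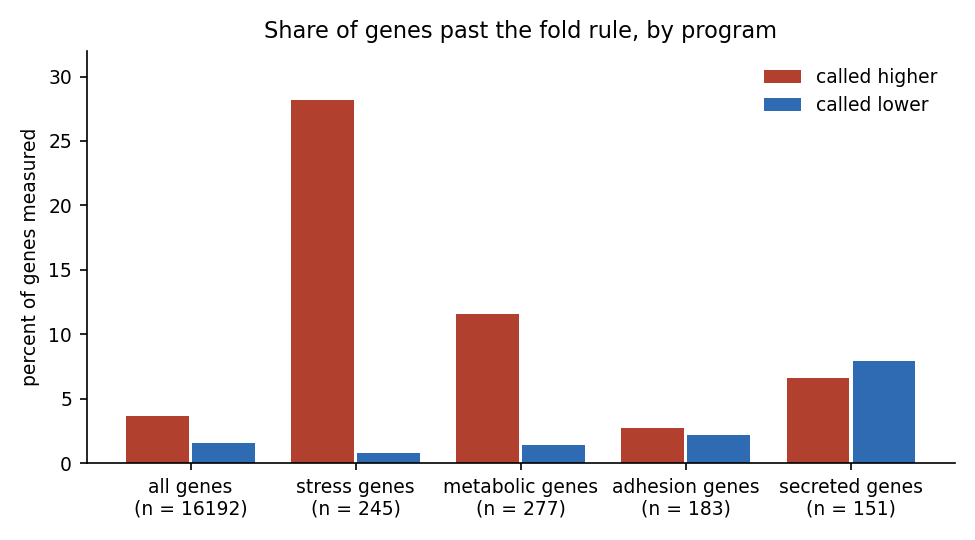
Bars give the percent of measured genes called higher (red) and lower (blue) for all 16192 genes and for the stress, metabolic, adhesion and secreted lists, with the number of genes under each pair. The higher bar is tallest for stress genes at 28.2% and next for metabolic genes at 11.6%, the adhesion bars stand near those of all genes, and only the secreted lists have more genes lower than higher.

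**Figure D3:**
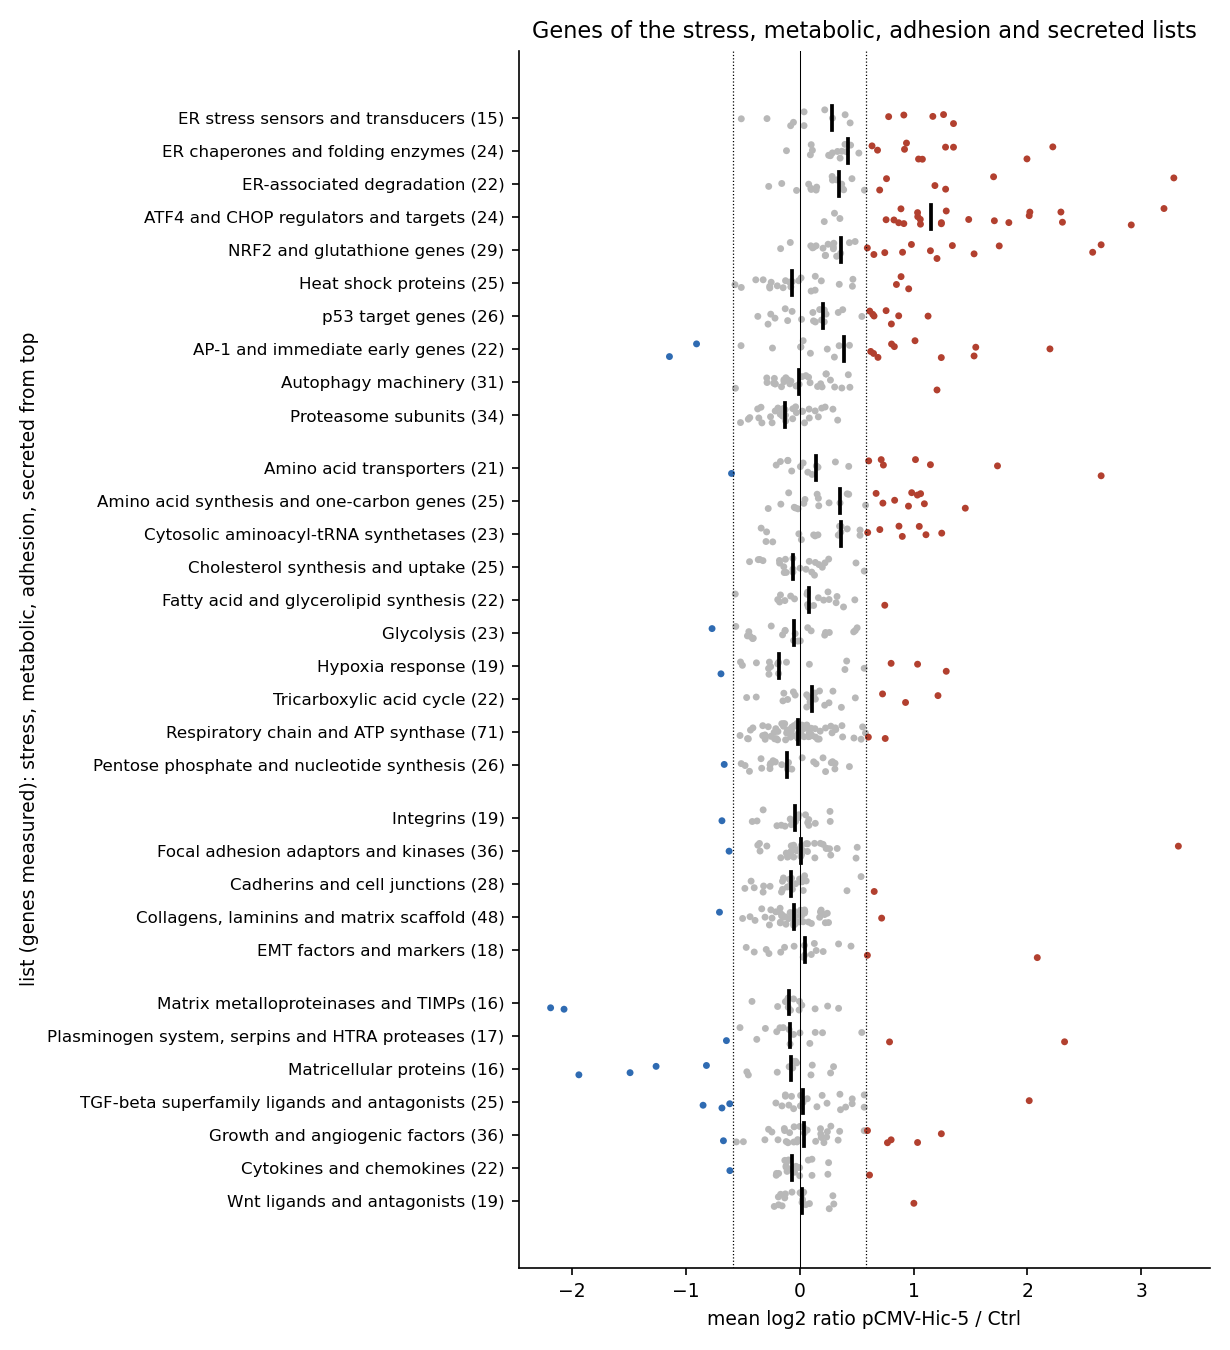
Each point is 1 gene of a list reported here, placed by its mean log2 ratio of pCMV-Hic-5 over Ctrl, with genes called higher in red, genes called lower in blue and genes not called in grey. Black bars are list medians, dotted lines mark 1.5-fold, and the numbers in brackets are genes measured. The ATF4 and CHOP list is shifted as a whole to a median of 1.15, the ER and NRF2 lists have medians between 0.29 and 0.43, and the adhesion and secreted lists centre near 0 with a few distant genes.

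The integrated stress response had the largest share of called genes of all lists. Of 24 measured regulators and targets of ATF4 and CHOP, 21 rose and none fell, with a median log2 ratio of 1.15. ATF4 itself rose by 1.61 and 1.35, a mean of 1.48 ± 0.13. CHAC1, which breaks down glutathione, was at 2.43 and 2.18, a mean of 2.31. TRIB3, a pseudokinase that restrains ATF4 signalling, was at 1.78 and 2.81, a mean of 2.29, so the arrays differed by more for TRIB3 than for the other leading genes. Partner factors of the bZIP family rose as well, with CEBPB at 2.02, ATF5 at 1.71, CEBPG at 1.06 and JDP2 at 0.89. Another probe of CEBPB was at 0.22. NUPR1, a stress-induced chromatin protein, rose by 1.84, and DDIT4, an inhibitor of mTORC1, by 1.29. EIF4EBP1, the translation repressor, rose by 1.04. The 3 members that did not pass were INHBE at 0.35, BCL2L11 at 0.31 and TNFRSF10B, a death receptor, at 0.22. All but 1 of the 24 genes were above 0 on both arrays. With normexp fitted on all spots the count remained 21, and on the Cy3 array alone it was 20.

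In the ER stress sensors and transducers, 5 of 15 genes rose, none fell and the median was 0.29. DNAJC3, an ER chaperone that also inhibits PERK, rose by 1.35, XBP1, the factor activated by IRE1 splicing, by 1.26, and EIF2AK3, the gene of PERK, by 1.17. PPP1R15A, which directs dephosphorylation of eIF2-alpha, rose by 0.91 and CREB3L4 by 0.78. ERN1, the gene of IRE1, was at 0.22, ATF6 at 0.29 and its relative ATF6B at -0.08, none of them called. PPP1R15B and CREB3L2 stood at 0.44 and 0.40, and CREB3 and CREB3L1 both at 0.04. The proteases that cleave ATF6, MBTPS1 and MBTPS2, were at -0.06 and -0.29. EIF2S1, which encodes eIF2-alpha, was lowest at -0.51. The probes read total RNA of each gene, so spliced XBP1 was not measured.

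ER chaperones and folding enzymes had 10 of 24 genes higher, none lower and a median of 0.43, with 21 of the 24 above 0 on both arrays. DNAJB9, a co-chaperone of BiP, rose by 2.22 on one array and 2.23 on the other. FICD, which modifies BiP, rose by 2.00, and HSPA5, the gene of BiP itself, by 1.15 and 1.41, a mean of 1.28. ERO1B, MANF, SDF2L1, CRELD2, CALR and DNAJB11 rose by 0.63 to 1.08. Several abundant folding enzymes fell short of the rule, with PDIA4 at 0.52, HYOU1 at 0.45, HSP90B1 at 0.41 and P4HB at 0.37. For ER-associated degradation, which exports and destroys misfolded proteins, 6 of 22 genes rose, none fell and the median was 0.35. After HERPUD1 came the ubiquitin ligase SYVN1 at 1.70, with another probe at 0.49, its partner SEL1L at 1.28, and DERL3 at 1.19. SELENOS and DERL2 rose by 0.76 and 0.70, and DERL1 was at -0.27.

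The ER stress element shown in HSPA5 was rare, present in 22 of 27305 RefSeq promoters or 0.0806%, and in 0.126% of the 12710 promoters of measured genes. Promoters here are the 250 bases before the start and 50 after it, and both strands were searched. It was found in 7 of 22 promoters of the ER chaperone list, in HSPA5, FICD, ERO1B, CALR, CRELD2, HSP90B1 and CANX, of which the first 5 rose and the last pair was at 0.41 and 0.10. Of the sensors, XBP1 held it. Among genes called higher 9 of 457 promoters held it, and among genes called lower 0 of 200. The ATF4 composite element was found in 3.67% of all promoters, in 2.07% of those of measured genes, in 21 of 457 of genes called higher, in 2 of 200 of genes called lower, in 3 of 20 promoters of the ATF4 and CHOP list (ATF3, CHAC1 and FGF21) and in 6 of 19 of the tRNA synthetases. The UPR element, TGACGTG, was in 2% of all promoters, in 12 of 457 of genes called higher and 6 of 200 of genes called lower. It was in 3 of 18 promoters of the ER-associated degradation list and 2 of 22 of the ER chaperones, but in none of the 19 promoters of ER genes called higher. The antioxidant response element, TGACNNNGC, was in 13.6% of all promoters, in 14.8% of those of measured genes and in 6 of 22 of the NRF2 list. Other groups had like shares, among them 5 of 19 amino acid transporters, 7 of 29 proteasome subunits and 6 of 19 ER genes called higher. The letters of this element can overlap those of the AP-1 and UPR elements. The AP-1 element was in 7.76% of all promoters and 5.03% of those of measured genes. It was in 32 of 457 promoters of genes called higher, 11 of 200 of genes called lower and 1 of 17 of the AP-1 list. These counts describe letters in fixed windows, and a promoter without a match can still be regulated by the factor.

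NRF2 targets, the genes of antioxidant defence and glutathione, had 12 of 29 members higher, none lower and a median of 0.36. SLC7A11 stood at 2.51 and 2.78, a mean of 2.65, with its 3 probes between 1.34 and 2.65. HMOX1 was at 2.63 and 2.51, a mean of 2.57 ± 0.06. GCLM, the regulatory subunit of glutathione synthesis, rose by 1.75 and MAFG, a DNA-binding partner of NRF2, by 1.53. SRXN1, SQSTM1, FTL, OSGIN1, TXNRD1 and the NRF2 inhibitor KEAP1 rose by 0.59 to 1.34. Values below the rule were 0.49 for GCLC, the catalytic partner of GCLM, 0.32 for NQO1, a classic NRF2 target, and 0.30 for NFE2L2, the gene of NRF2. SLC7A11 and SLC3A2, which together form the cystine transporter, are also known targets of ATF4, and SQSTM1 is shared with the autophagy list.

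Other stress programs moved in part. Among 22 AP-1 and immediate early genes 10 rose and 2 fell, with a median of 0.39. JUN, the core AP-1 subunit, was at 2.26 and 2.13, a mean of 2.20 ± 0.07. DUSP1, a phosphatase of stress kinases, and ZFP36, a factor of mRNA decay, rose by 1.55 and 1.24. FOS rose by 0.65 and FOSB by 0.83, and FOSL1 by 0.62, the last just short of 1.5-fold on the Cy5 array. In the opposite direction, EGR1 fell by 1.14 on the log2 scale and EGR2 by 0.91, both zinc finger factors of the growth factor response, while EGR3 rose by 0.69. MYC stood at -0.52 and KLF6 at -0.24.

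Of 26 p53 target genes 7 rose, none fell and the median was 0.20. CDKN1A, the cell cycle inhibitor p21, was at 1.40 and 0.85, a mean of 1.13. BBC3, the death protein PUMA, was at 1.46 and 0.28, and its next brightest probe at 0.89 and 1.46, so the probes differ in which array is higher. PHLDA3 rose by 0.80 and SESN2 by 0.76, and AEN, PLK3 and BTG2 by 0.61 to 0.65. MDM2 was at 0.22, BAX at -0.13 and ZMAT3, the lowest, at -0.37. BBC3 and SESN2 also stand in the ATF4 and CHOP list. With 1.5-fold required on each array 2 of the 26 passed by their brightest probe, CDKN1A and PHLDA3.

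Heat shock proteins of the cytosol and mitochondria had a median of -0.07. Of 25 genes 3 (12.0%) rose, against 3.64% of all genes, and none fell. Those that rose were the co-chaperones DNAJB4 at 0.96, BAG3 at 0.89 and DNAJB1 at 0.85. The inducible chaperone HSPA1A was at 0.01, HSP90AA1 at -0.01 and HSPH1, lowest, at -0.57. In the autophagy machinery SQSTM1, the cargo receptor p62, rose by 1.21 and was the 1 gene of 31 that passed, beside MAP1LC3B at -0.22 and a list median of -0.00, or 0.02 with median centring in place of loess. Proteasome subunits held no called gene among 34, with a median of -0.13 and 19 of them below 0 on both arrays.

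**Figure D4:**
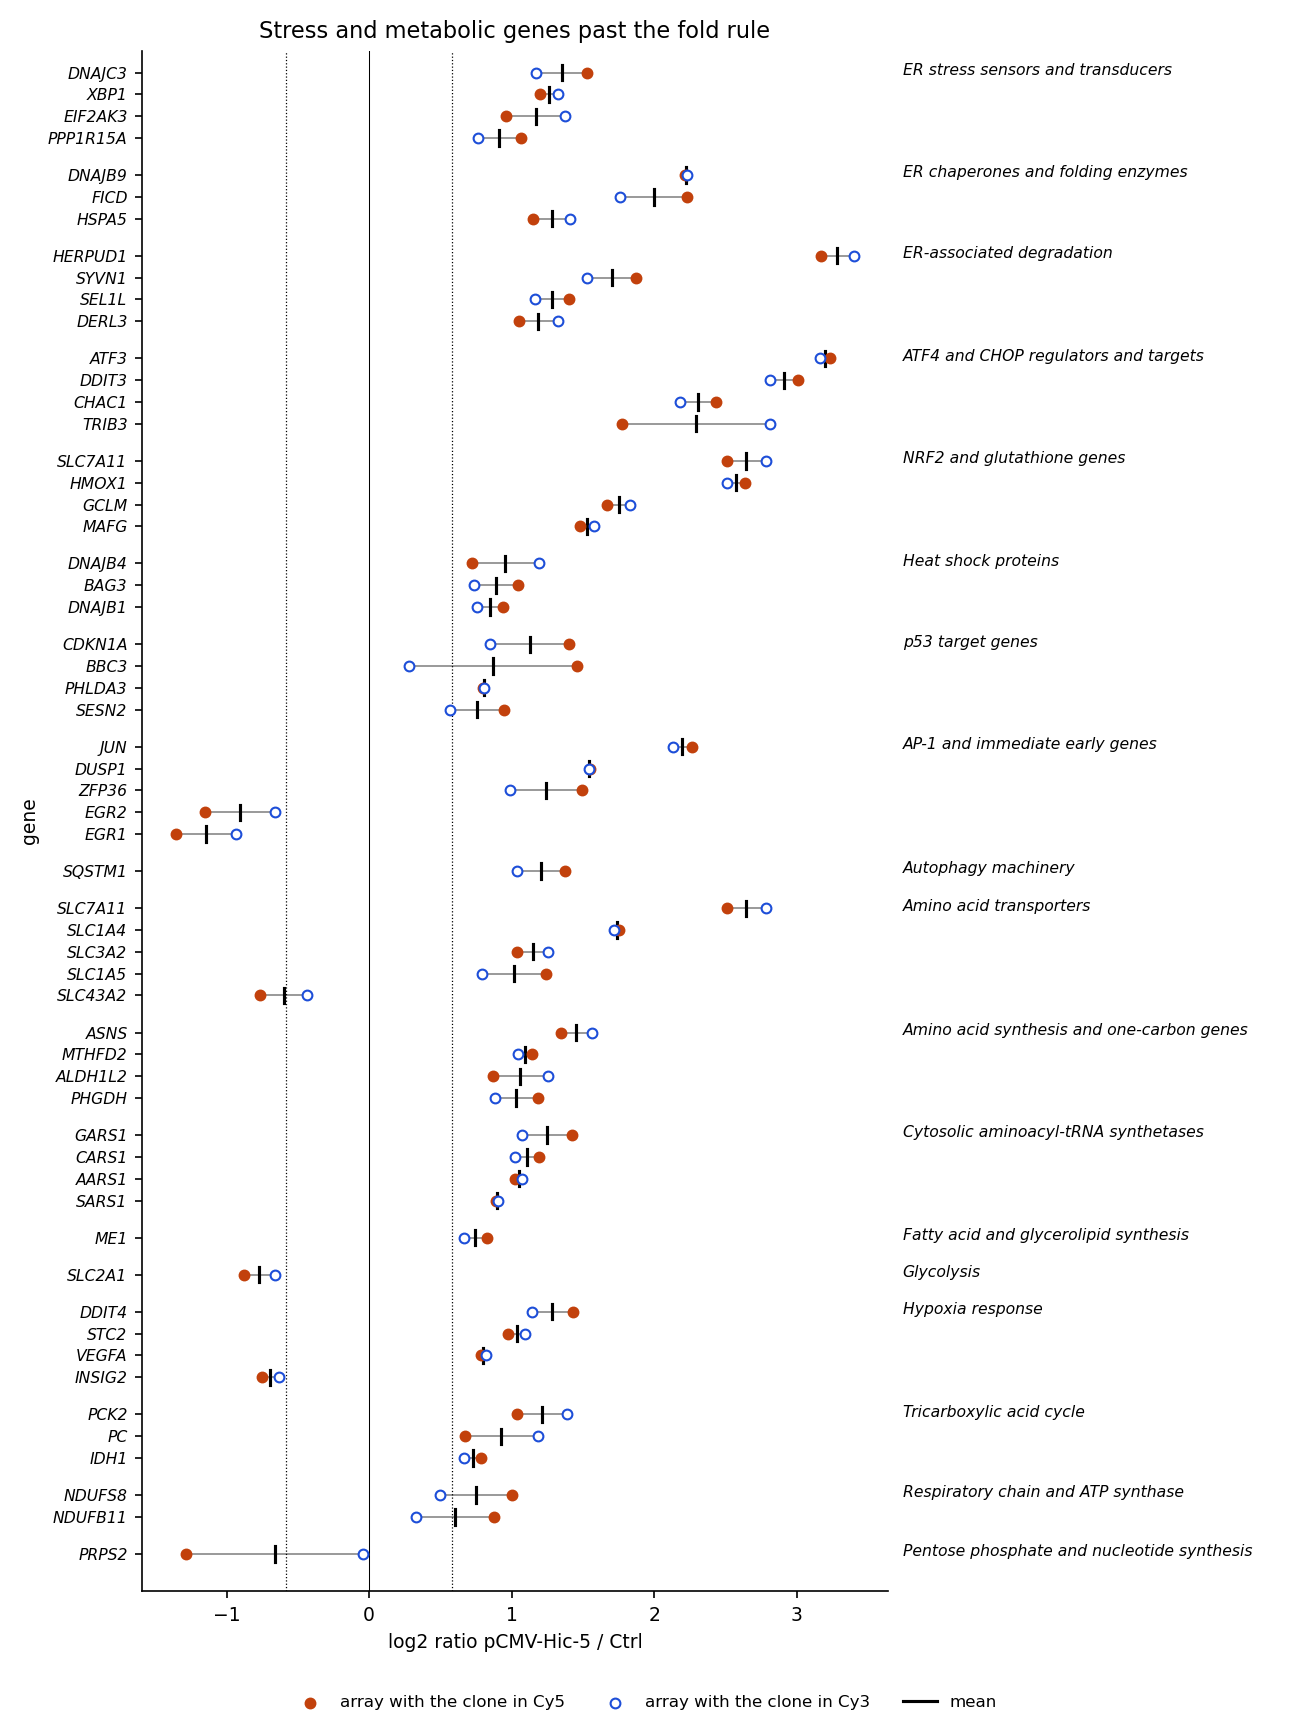
For each stress or metabolic list, up to 4 called genes with the largest rise and up to 4 with the largest fall are shown by their log2 ratio of pCMV-Hic-5 over Ctrl on the Cy5 array (filled points), on the Cy3 array (open points) and as the mean (bars), with dotted lines at 1.5-fold. ATF3, DNAJB9, DUSP1 and SLC1A4 have nearly the same ratio on both arrays, BBC3, TRIB3 and PRPS2 differ most between the arrays, and EGR1, EGR2, SLC43A2, SLC2A1, INSIG2 and PRPS2 lie on the lower side. A gene of several lists may be drawn under the first only.

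The metabolic rise lay mostly in amino acid supply and in the charging of tRNA. Of 21 amino acid transporters 7 rose and 1 fell, with a median of 0.15. After SLC7A11 came SLC1A4, a carrier of neutral amino acids, at 1.75 and 1.72, a mean of 1.74, then SLC3A2, the shared heavy chain, at 1.15 and the glutamine carrier SLC1A5 at 1.02. The leucine carrier SLC7A5 rose by 0.73, SLC43A1 by 0.72 and the arginine carrier SLC7A1 by 0.61. SLC43A2 fell by 0.60 on the log2 scale, with another probe at -0.04. SLC38A2, a transporter known to respond to amino acid lack, was at 0.16.

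Among 25 genes of amino acid synthesis and one-carbon metabolism 9 rose and none fell, with a median of 0.35. ASNS, asparagine synthetase, was at 1.35 and 1.56, a mean of 1.45 ± 0.11. Each of the 3 enzymes of serine synthesis rose, with PHGDH at 1.03, PSAT1 at 0.98 and PSPH at 0.67. In the mitochondrial folate cycle MTHFD2 rose by 1.09, ALDH1L2 by 1.06, with another probe at 0.10, and SHMT2 was at 0.58, just short of the rule. GPT2, CTH and GOT1, enzymes of alanine, cysteine and aspartate metabolism, rose by 0.96, 0.83 and 0.73. Of proline synthesis, PYCR1 was at -0.02 and ALDH18A1 at -0.05, neither called.

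Cytosolic aminoacyl-tRNA synthetases, which load tRNAs with their amino acids, had 7 of 23 members higher, none lower and a median of 0.36. GARS1 rose by 1.25, CARS1 by 1.11, AARS1 by 1.05, SARS1 by 0.90, WARS1 by 0.87, NARS1 by 0.70 and EPRS1 by 0.60. SARS1 had nearly equal values on the arrays, 0.89 and 0.91. At the other end RARS1 was at -0.30, KARS1 at -0.29 and the scaffold AIMP1 at -0.34. The ATF4 composite element was found in the promoters of CARS1, AARS1 and NARS1, which rose, and of TARS1, IARS1 and MARS1, at 0.53, 0.35 and 0.13.

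Other parts of metabolism differed in their share of called genes. In the tricarboxylic acid cycle and its inflow 3 (13.6%) of 22 rose, against 3.64% of all genes. PCK2, the mitochondrial PEP carboxykinase, rose by 1.21, pyruvate carboxylase PC by 0.93 and IDH1 by 0.73, with a list median of 0.11. Of 71 respiratory chain and ATP synthase genes 2 (2.82%) rose, near the share of all genes. NDUFS8 was at 1.01 and 0.50 and NDUFB11 at 0.88 and 0.33, both past 1.5-fold on 1 array only. The median of that list was -0.02, or 0.02 with median centring. Glycolysis had 1 called gene of 23, the glucose carrier SLC2A1, which fell by 0.77 on the log2 scale while its other probe was at 0.02. LDHA and HK2 stood at -0.56 and -0.45, GAPDH and ALDOA at 0.50 and 0.47.

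The hypoxia list had 3 (15.8%) of 19 higher and 1 (5.26%) lower, against 3.64% and 1.59% of all genes, with a median of -0.19. DDIT4, STC2 at 1.04 and VEGFA rose, of which DDIT4 and STC2 also stand in the ATF4 and CHOP list. INSIG2 fell by 0.69 on the log2 scale, with another probe at -0.35. CA9, a marker of hypoxia, was at -0.19 and HIF1A at -0.19. Cholesterol synthesis held no called gene of 25, and its median of -0.06 was 0.01 with median centring. Fatty acid and glycerolipid synthesis held 1 of 22, malic enzyme ME1 at 0.75 with a probe at 0.15, with a median of 0.08. In the pentose phosphate and nucleotide list of 26 the 1 called gene was PRPS2, at -1.28 and -0.04, with another probe at 0.16, and the median was -0.11.

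Few adhesion genes were called. Of 36 measured focal adhesion adaptors and kinases TGFB1I1 itself was the 1 that rose, and PARVA, which links integrins to actin, fell by 0.62 on the log2 scale with another probe at -0.10. Paxillin, PXN, the nearest relative of Hic-5 in the list, was at 0.47 and 0.05, a mean of 0.26, with a probe at -0.70. Focal adhesion kinase, PTK2, was at 0.05 and -0.03. The list median was 0.01, and -0.03 with the processed signals of Feature Extraction. The integrin list had 1 called gene of 19, ITGB1, the common beta chain, at -0.97 and -0.39, a mean of -0.68, and a median of -0.04. ITGB1 reached 1.5-fold on the Cy5 array only, and its other probes were at -0.53 and -0.45, neither called.

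Cell junctions held 1 called gene of 28, JUP, the desmosomal plakoglobin, at 0.94 and 0.37, with a list median of -0.08. Tight junction genes OCLN and F11R stood at 0.54 and -0.48. Of 48 collagens, laminins and other scaffold genes LAMB1, a laminin chain, rose by 0.72, and the median was -0.05. P4HA2, a collagen prolyl hydroxylase, was at -1.13 and -0.28, a mean of -0.70, with another probe at -0.35. COL1A1 was at -0.33, COL4A1 at -0.17 and the fibrillin FBN1 at -0.44.

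Of 18 measured EMT factors and markers 2 rose, none fell and the median was 0.04. SNAI1, the gene of the repressor Snail, had an intensity of 2822 in the clone and 304 in Ctrl on the Cy5 array, and of 1638 and 498 on the Cy3 array. Its log2 ratio was 2.26 and 1.92, a mean of 2.09 ± 0.17, and the clone was above Ctrl on both arrays. The other was the epithelial keratin KRT18, at 0.54 and 0.65, a mean of 0.59, with its 4 probes from -0.10 to 0.76. SNAI1's relatives SNAI2 and SNAI3 were at -0.47 and 0.45. The other transcription factors of the list lay below the rule, with FOXC2 at 0.34, ZEB1 at 0.21, TCF4 at 0.13, PRRX1 at -0.05, TWIST2 at -0.13, ZEB2 at -0.17, TCF3 at -0.27 and TWIST1 at -0.29. VIM, vimentin, had opposite signs, 0.73 and -0.44. CDH2, N-cadherin, was at -0.69 and -0.11, a mean of -0.40. Epithelial members EPCAM, OVOL2, ESRP1 and KRT8 lay between 0.03 and 0.10. CDH1, FN1, GRHL2, KRT19 and GSC did not pass the filter on dim or unmeasured spots, so the list says nothing of them.

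**Figure D5:**
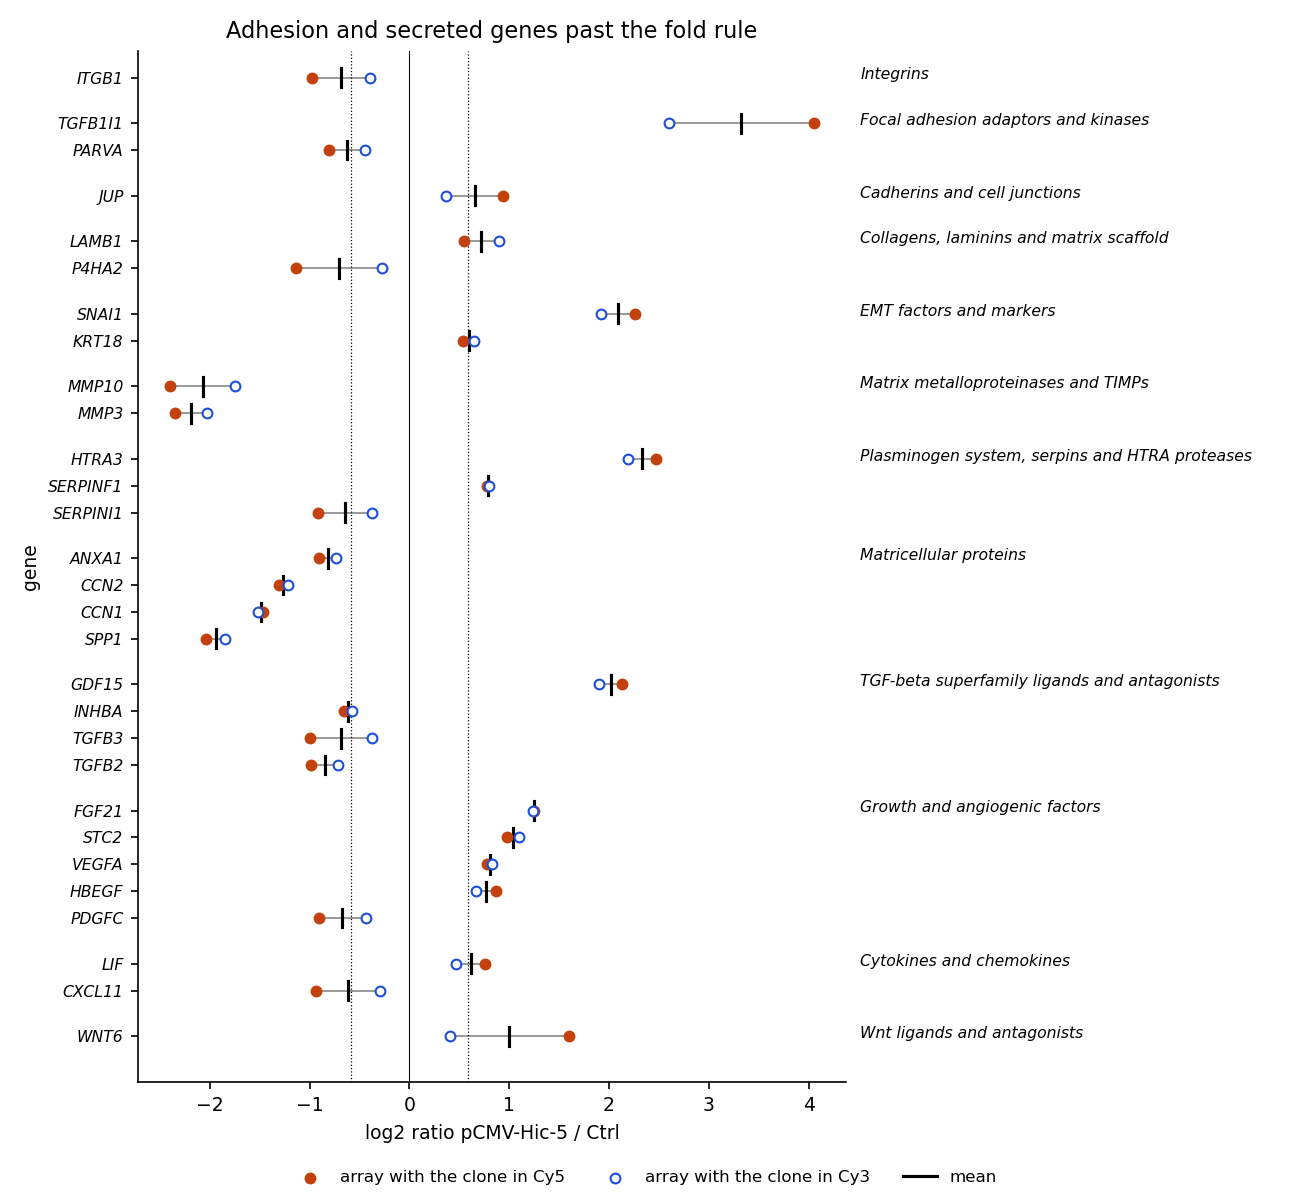
For each adhesion or secreted list reported here, up to 4 called genes with the largest rise and up to 4 with the largest fall are shown by their log2 ratio of pCMV-Hic-5 over Ctrl on the Cy5 array (filled points), on the Cy3 array (open points) and as the mean (bars), with dotted lines at 1.5-fold. MMP3, MMP10, SPP1 and CCN1 lie far to the left on both arrays, HTRA3, SNAI1 and GDF15 far to the right, and most adhesion genes have 1 of their points inside the dotted lines.

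Secreted genes moved both ways, with the deepest falls of all genes among proteases and matricellular proteins. MMP3, the stromelysin that degrades matrix and activates other proteases, read 278 in the clone and 939 in Ctrl on the Cy5 array, and 150 and 883 on the Cy3 array. Its log2 ratio was -2.35 and -2.03, a mean of -2.19 ± 0.16. MMP10, the related stromelysin, read 743 and 2301, and 419 and 1849, with ratios of -2.40 and -1.75 and a mean of -2.07. For both genes the clone was the dimmer channel on both arrays. They were the called genes among 16 measured metalloproteinases and inhibitors, whose median was -0.09. MMP1 was at -0.42, MMP14 at -0.01, MMP9 at -0.10 and the inhibitors TIMP1 and TIMP2 at 0.25 and 0.14.

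Matricellular proteins, which sit in the matrix and signal to cells, had 4 of 16 members lower, none higher and a median of -0.08. SPP1, osteopontin, read 434 in the clone and 1097 in Ctrl on one array and 330 and 1589 on the other, with ratios of -2.03 and -1.85 and a mean of -1.94 ± 0.09. CCN1 fell by 1.49 on the log2 scale, with its 3 probes from -1.86 to -1.26, and CCN2, connective tissue growth factor, fell by 1.26. ANXA1, annexin A1, fell by 0.82. Other members did not pass, with POSTN at -0.45, THBS1 at -0.09 and SPARC at -0.06.

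Among proteases of the plasminogen system, serpins and HTRA proteases, HTRA3, a secreted serine protease, rose by 2.47 and 2.19, a mean of 2.33, and SERPINF1, an antiangiogenic serpin, by 0.79. SERPINI1 was at -0.92 and -0.37, a mean of -0.64. That made 2 of 17 higher and 1 lower, with a median of -0.08. The urokinase gene PLAU and its receptor PLAUR were at -0.20 and 0.00.

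Ligands and antagonists of the TGF-beta superfamily had 1 of 25 higher and 3 lower, with a median of 0.03. GDF15, a stress-induced cytokine that is also in the ATF4 and CHOP list, was at 2.13 and 1.90, a mean of 2.02 ± 0.11. TGFB2 fell by 0.85 on the log2 scale, TGFB3 was at -0.99 and -0.37 with a mean of -0.68, and INHBA, the activin chain, fell by 0.61. TGFB1 was at 0.36. Of 36 growth and angiogenic factors 5 rose and 1 fell, with a median of 0.04. FGF21, a metabolic hormone, rose by 1.25 and 1.24, STC2 by 1.04, HBEGF by 0.77, with another probe at 0.38, and IGFBP2 by 0.59. VEGFA, the main angiogenic factor, rose by 0.80, with its 4 probes from 0.20 to 0.86. PDGFC was at -0.67, with another probe at 0.02.

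Cytokines and chemokines had 1 of 22 genes higher and 1 lower, with a median of -0.07. LIF rose by 0.61, with another probe at 0.17, and CXCL11 was at -0.93 and -0.29, with another probe at -0.37. IL6 was at -0.13 and IL1B at -0.10. Wnt ligands and antagonists had 1 of 19 called, WNT6 at 1.60 and 0.41, a mean of 1.00 with another probe at -0.02, and a median of 0.02. In the growth hormone and placental lactogen cluster CSH1 was at 2.95 and 1.49, a mean of 2.22 ± 0.73, on a probe that was saturated on an array, and its 3 probes ranged from 0.22 to 2.34. GH1, GH2, CSHL1 and CSH2 were at 0.27, 0.20, 0.08 and 0.03, and as these 5 genes are near-identical copies, which of them was read is uncertain. The CSH1 probes that rose had mean log2 intensities of 17.67 and 17.63, beside 7.79 for its remaining probe. The brightest probes of GH1, GH2, CSHL1 and CSH2 lay between 7.82 and 9.01. Whether the bright signal came from a gene of this cluster at all was not tested.

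For the same genes the SKOV3 arrays give values that can be set beside these but not compared, since the cell line, the slide and the construct all differ and both SKOV3 clones share 1 Ctrl. For sh-S1 and sh-S2, labelled as Hic-5 knockdowns, TGFB1I1 was at -0.02 and 0.08, so the labels were not borne out by this probe. The paper reports that these clones were selected on their Hic-5 mRNA and protein, which were measured by other methods. ATF3 was at -0.27 and 0.26, DDIT3 at -0.09 and 1.49 and MMP3 at 0.06 and 0.00. SNAI1 stood at -0.84 and -1.08, JUN at -3.25 and -3.38, SLC7A11 at -2.30 and -2.53 and SPP1 at -4.22 and -4.37. On the other side, GDF15 stood at 2.00 and 1.21, ASNS at 1.24 and 1.75, PCK2 at 1.86 and 2.63 and CDKN1A at 1.26 and 0.76. The last 8 genes were picked after their values were seen. Genes called higher in A2780s had a median of 0.05 and 0.12 there, and genes called lower 0.06 and 0.09, beside 0.02 and 0.02 over all genes.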

How the data were processed

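Total RNA of the A2780s pCMV-Hic-5 and Ctrl clones had been labelled with cyanine dyes and hybridised to Agilent Whole Human Genome arrays with the dyes exchanged. The deposited scanner tables hold the mean intensity and local background intensity of each spot in Cy3 and Cy5, and a log10 ratio that the authors' scan software formed after its own background and dye correction (Agilent Feature Extraction 8.5.1.1 in the submitters' processing notes). The study selected genes on a p-value and then on fold change, and its normalization and the test behind that p-value are not given in the sources used here. The deposited log10 values for the whole series repeat that ratio, as Cy5 over Cy3 and not turned on dye-swapped arrays, and were not used further.

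Background correction used normexp (offset 50) fitted on spots without a background flag, spots with a local background over 1000 were set aside (39 probe spots, all where the clone carried Cy3), and log2 ratios were normalised by loess within each array (R 4.3.3, limma 3.58.1, data.table, version 1.17.8), turned to pCMV-Hic-5 over Ctrl and averaged. Summaries and plots used Python 3.11.15, pandas 2.3.3, numpy 2.4.6 and matplotlib 3.10.9. Control and outlier spots were left out and saturated spots kept. Each array had 45015 spots with 41000 probes, and the share of probe spots well above background lay between 74.3% and 88.0% by channel. A probe entered when it had a value on both arrays and at least 1 RNA was well above background on both, and a gene was read by its brightest probe. Of 41000 probes 31006 were named, 28078 through the probe's accession and 2770 through the array's own gene name. The steps were tested on simulated data. The number of arrays limits the precision.

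Groups came from the sample labels. The members and all gene lists were chosen with earlier results of these data known, so list counts are descriptions. Genes named are the 10 largest rises and 10 largest falls among called genes, in each list up to 4 called members with the largest rise and 4 with the largest fall, TGFB1I1, ATF3, DDIT3, MMP3, all members of the ER sensor, EMT, growth hormone and cell type lists where the text gives them, and genes the study's text names. Other list members were added for context after their values were seen. An adhesion list, whose genes stay in the program counts, and some single genes are not reported here. Alternatives were the scanner's processed signals, normexp fitted on all spots, an offset of 10, median centring, other filters, each array alone, other call rules and the mean of a gene's probes.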

Additional observations from a re-analysis of the deposited data

How the results depend on the processing

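No paired analysis was possible because the A2780s arrays hold 1 replicate and the result comes from no test, and a slide block was not run because both arrays lie on 1 slide. The log2 ratio of TGFB1I1 ranged from 2.60 to 4.05 between the arrays alone. Taking each array alone, probes higher in pCMV-Hic-5 ranged from 1019 to 1795 and probes lower in pCMV-Hic-5 from 210 to 1516, genes higher from 625 to 992 and lower from 143 to 909, with the smaller number where the clone was in Cy3. By the same step stress genes higher ranged from 65 to 69 and lower from 3 to 9, metabolic genes higher from 31 to 45 and lower from 2 to 18, adhesion genes higher from 7 to 9 and lower from 1 to 15, and secreted genes higher from 9 to 16 and lower from 7 to 15. With Feature Extraction's processed signals 693 probes and 392 genes were lower, among them 6 stress, 7 metabolic and 7 adhesion genes, and 554 of the 590 higher genes and 248 of the 257 lower genes kept their call. With normexp fitted on all spots, where the fitted Cy5 background of the Cy3 array went from -7.90 to -998, 4 stress genes were lower and 3 adhesion genes higher, 434 and 193 genes kept their call, and 87 of 100 named called genes did, FOSL1 at 0.38, HBEGF at 0.55 and LAMB1 at 0.53 among those that did not. Requiring 1.5-fold on each array left 495 probes higher and 123 lower, 314 genes higher and 95 lower, 2 metabolic genes lower, 2 adhesion genes higher and 0 lower, and 7 secreted genes lower. At 2-fold there were 194 probes higher and 29 lower, 126 genes higher and 18 lower, 40 stress genes higher and 1 lower, 14 metabolic genes higher and 0 lower, 2 adhesion genes higher and 0 lower, and 5 secreted genes higher and 5 lower. With the mean of a gene's probes 157 genes were lower, 1 of them metabolic and 0 adhesion, and 6 secreted genes were higher. Of the 100 named called genes 96 kept their call on the Cy5 array alone and 79 on the Cy3 array alone. The remaining alternatives moved each of these counts by less than 1.5 times, and no named result changed sign while called under any alternative listed. Fewer genes pass the stricter call rules by construction, and for the other changes the cause was not tested. Both arrays share 1 pair of RNAs, so none of these settings measures variation between cultures or clones.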

Other observations

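Further groups, chosen after their values were seen unless named as a list, moved outside the stress, metabolic, adhesion and secreted programs. The replication-dependent H2B histone genes had 10 (62.5%) of 16 measured members called lower, against 1.59% of all genes, and none higher. All 16 were below 0 on both arrays, with a median log2 ratio of -0.76. They ranged from H2BC11, at -1.31 and -0.83 with a mean of -1.07, to H2BC9, at -0.31 and -0.67 with a mean of -0.49. The median of this family stayed between -0.78 and -0.63 under the alternatives tried. H2B genes are near-identical in their coding part, so which of them was read is uncertain. For the other core histones the medians were -0.15 for 14 H2A genes, -0.24 for 12 H3 genes, all 12 of them below 0 on both arrays, and -0.01 for 13 H4 genes, which was 0.05 with median centring. Among linker histones H1-2 fell by 1.00 on the log2 scale and H1-10 rose by 0.68.

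Host genes of small nucleolar RNAs, whose introns yield the guides of ribosomal RNA modification, had 8 of 16 measured SNHG genes called higher, none lower and a median of 0.55. SNHG12 was at 1.17 and 1.53, a mean of 1.35, SNHG8 at 1.05, SNHG11 at 0.97 and SNHG1 at 0.91. SNHG10 was below 0 on both arrays, at a mean of -0.23, and SNHG16 and SNHG18 had opposite signs. The median lay between 0.46 and 0.58 under the alternatives tried.

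Proliferation lists held few called genes. Of the DNA replication and E2F targets 1 (2.78%) rose and 2 (5.56%) fell, against 3.64% and 1.59% of all genes. The list of DNA replication and E2F targets had a median of -0.16 over 36 genes, with the origin licensing factor CDC6 higher at 0.38 and 0.95, and the flap nuclease FEN1 and the methylation factor UHRF1 lower at means of -0.61 and -0.63, with other probes at -0.56 and -0.40. Genes of mitosis and the spindle had no called member among 30, a median of -0.17 and 19 members below 0 on both arrays. Of 24 interferon-stimulated genes IFIT1, an antiviral RNA-binding protein, fell by 0.93 on the log2 scale and no other passed, with a median of -0.05. By chromosome, the share called higher ran from 1.75% of genes on chromosome 2 to 6.40% on chromosome 19, beside 3.64% of all genes. Chromosomes 16 and 13 came next to chromosome 19, at 6.18% and 5.86%. The share called lower ran from 0.337% on chromosome 19 to 2.88% on chromosome 4, beside 1.59% of all genes. The median log2 ratio was 0.11 on chromosome 19, beside -0.01 over all genes.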
